A study of Mus musculus with 10 samples.

Results

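Neurons are recognised by a shared set of genes that build the axonal cytoskeleton, release synaptic vesicles and handle neuronal messenger RNAs. Chosen by symbol were 31 such genes, of 55401 gene identifiers measured in Neuro2a cells. They comprised 5 microtubule-associated proteins, 3 beta tubulins, 2 stathmins, 4 neurofilament subunits, 4 growth cone and adhesion genes, 3 SNARE proteins, 4 synaptotagmins and complexins, 3 vesicle-associated proteins and 3 ELAV-like genes. Their level in this line, and their response to a repressor directed at the sodium channel gene SCN9A, are described here.

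RNA sequencing was carried out on Neuro2a, a line derived from a mouse neuroblastoma, which the labels give as wild-type. Cells were transfected with Lipofectamine, with 0.5 µg of each plasmid, and every group had an incubation of 72 h. The groups were dCas9-SCN9A (3 libraries) with its control dCas9-empty (3 libraries), and ZF-SCN9A, a zinc-finger protein (2 libraries), with mCherry, a red fluorescent protein taken as its control (2 libraries). In dCas9 the nuclease is disabled, so that it binds DNA without cutting it. Not stated in the labels are what dCas9-empty lacks, the share of cells transfected and where on Scn9a the repressors bind, and they name no treatment to make the cells differentiate. The mCherry plasmid differs from ZF-SCN9A in the whole protein it encodes, so directing a zinc finger at SCN9A cannot be told apart from making any zinc-finger protein.

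Microtubules are polymers of alpha and beta tubulin, stabilised by microtubule-associated proteins and shortened by stathmins, and neurofilaments fill the calibre of the axon. Vesicles fuse with the membrane when the SNARE proteins of vesicle and membrane zip together, a step that synaptotagmin couples to calcium and that complexin controls. ELAV-like proteins bind and stabilise messenger RNAs rich in A and U. Neuroblastoma cells come from the sympathoadrenal lineage and express part of this set without forming mature synapses.

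Gene counts were 15356843, 16351528 and 15459344 in the dCas9-SCN9A libraries, 17942680, 18984566 and 17770383 in dCas9-empty, 6297752 and 4412097 in ZF-SCN9A, and 6588126 and 7478956 in mCherry. Levels are given as CPM, counts relative to the depth of the library, scaled by edgeR's TMM factors over all 10 libraries. Between genes, levels are compared only per kilobase of exon. The targeted gene Scn9a stood at 31.6, 31.7 and 28.9 CPM with dCas9-SCN9A, against 77.0, 83.3 and 79.8 CPM with dCas9-empty. It stood at 18.1 and 15.0 CPM with ZF-SCN9A, against 60.3 and 54.3 CPM with mCherry. Its libraries did not overlap in either comparison, and it was left at 38.4% of its control with dCas9-SCN9A and at 29.5% with ZF-SCN9A. Of 11 sympathoadrenal markers, 10 exceeded 1 CPM in every group. All 11 together had summed levels of 2809 to 3219 CPM in dCas9-SCN9A, 2894 to 3116 in dCas9-empty, 1758 to 1767 in ZF-SCN9A and 1728 to 1752 in mCherry. Summed markers of fibroblasts, astrocytes, oligodendrocytes and Schwann cells, immune cells and endothelium each stood at or under 36.1 CPM in every library. In bulk RNA, fewer cells of a type and less RNA per cell cannot be told apart.

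Promoter sequences of 19 of the 31 genes were found in the RefSeq table (build GRCm38.p6), which holds 250 bases before and 50 after each start. Shown are the promoters of the beta tubulin Tubb3, which had the highest level per kilobase, of the abundant Map1b and the intermediate filament Ina, and of Dcx, which was almost unexpressed. Each runs 5′ to 3′ on the strand of its gene. Capitals mark TATAAA and GGGCGG, searched on both strands (the second reads CCGCCC on the other strand).
Tubb3: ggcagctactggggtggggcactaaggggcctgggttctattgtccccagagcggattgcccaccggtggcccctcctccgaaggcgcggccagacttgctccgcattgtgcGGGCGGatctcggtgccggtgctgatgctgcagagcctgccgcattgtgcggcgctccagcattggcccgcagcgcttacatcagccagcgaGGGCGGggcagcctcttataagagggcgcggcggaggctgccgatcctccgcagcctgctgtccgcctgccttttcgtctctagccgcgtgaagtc
Map1b: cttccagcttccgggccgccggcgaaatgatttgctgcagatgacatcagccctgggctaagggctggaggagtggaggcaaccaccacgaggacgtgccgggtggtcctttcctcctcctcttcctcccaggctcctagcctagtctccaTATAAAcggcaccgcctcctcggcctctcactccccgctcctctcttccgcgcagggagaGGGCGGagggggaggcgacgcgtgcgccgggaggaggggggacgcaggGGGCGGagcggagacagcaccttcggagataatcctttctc
Ina: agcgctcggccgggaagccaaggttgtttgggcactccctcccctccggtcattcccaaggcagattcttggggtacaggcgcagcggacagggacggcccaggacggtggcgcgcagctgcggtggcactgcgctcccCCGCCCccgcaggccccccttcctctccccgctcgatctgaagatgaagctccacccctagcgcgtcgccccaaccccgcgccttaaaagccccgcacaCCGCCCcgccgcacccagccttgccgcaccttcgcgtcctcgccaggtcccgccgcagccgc
Dcx: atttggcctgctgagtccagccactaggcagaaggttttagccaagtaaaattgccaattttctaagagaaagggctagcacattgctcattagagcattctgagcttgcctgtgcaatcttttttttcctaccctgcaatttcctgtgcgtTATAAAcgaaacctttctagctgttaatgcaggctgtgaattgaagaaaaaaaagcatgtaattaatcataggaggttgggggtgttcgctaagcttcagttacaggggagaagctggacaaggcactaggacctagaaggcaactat
Tubb3 lies at chr8:123411303-123411602 (+), Map1b at chr13:99516553-99516852 (-), Ina at chr19:47014431-47014730 (+) and Dcx at chrX:143933170-143933469 (-). The CpG dinucleotides number 26 in the Tubb3 window, 23 in Map1b and 32 in Ina, against 3 in Dcx. Over all 32851 promoters in the table the median was 7. Of the 19 genes with a promoter, 17 had at least 1 start above that median, and the exceptions were Dcx and Stmn3. TATAAA occurred at a start of 4 of the 19 genes (Elavl3, Tubb2a, Map1b and Dcx) and in 13.6% of all promoters, and GGGCGG at a start of 14 of them and in 35.7% of all promoters. A gene can have several listed starts that overlap, so the shares are not over equal units. These letters are a description and not evidence of a factor's binding.

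Most of the set was strongly expressed in control cells, but unevenly by role. In dCas9-empty, Tubb3, the neuronal beta tubulin, stood at 402 ± 18.8 CPM per kilobase (SD, n = 3), and in mCherry at 396 ± 23.8 (SD, n = 2). Of the 31 genes, 22 stood above 90% of the 27824 genes with counts in dCas9-empty, and 20 above 90% of the 23173 with counts in mCherry. The order of levels was close between the 2 controls (Spearman 0.98 over 31 genes, which share a library and are not independent replicates).

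**Figure D1:**
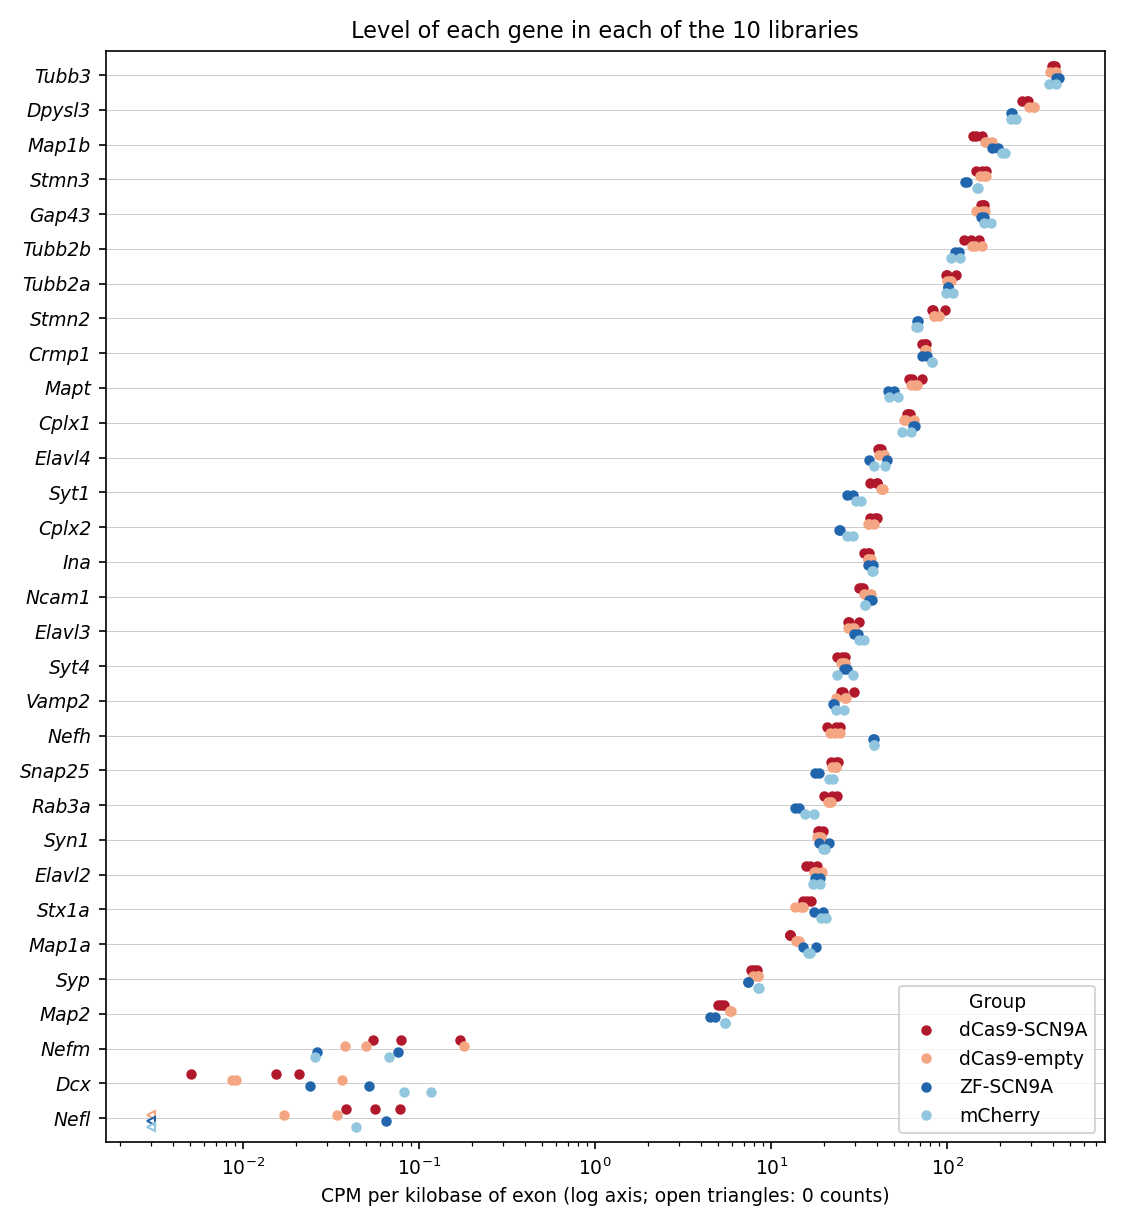
Level of each of the 31 genes in CPM per kilobase of exon (log axis), with 1 point per library, coloured by group and ordered by the mean in dCas9-empty. Levels fall gradually over 28 genes to Map2, and Nefm, Dcx and Nefl stand apart at the bottom.

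Genes of growing neurites and of tubulin supply led the set. In dCas9-empty, Tubb3 was followed by Dpysl3, a collapsin response mediator of the growth cone, at 304 CPM per kilobase. Map1b had 171, the stathmin Stmn3 161, the growth-associated protein gene Gap43 155, the beta tubulins Tubb2b 146 and Tubb2a 102, and the stathmin Stmn2 85.9 CPM per kilobase in dCas9-empty. In mCherry, Dpysl3 had 238, Map1b 209, Gap43 169, Stmn3 148, Tubb2b 112, Tubb2a 103 and Stmn2 67.0 CPM per kilobase. Tubb2a and Tubb2b are near-identical copies, and reads placed at several sites were not counted, so their levels are uncertain.

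Release genes and RNA-binding genes mostly stood below these. In dCas9-empty, Crmp1, a relative of Dpysl3, had 74.9, the tau gene Mapt 64.9, the complexin Cplx1 59.7, the ELAV-like gene Elavl4 42.7 and Syt1, the calcium sensor of fast release, 42.5 CPM per kilobase. The complexin Cplx2 had 36.5, Ina (alpha-internexin) 35.9, the adhesion molecule Ncam1 35.6, Elavl3 28.5, the synaptotagmin Syt4 25.5 and the vesicle SNARE Vamp2 25.3 in the same libraries. In mCherry, Crmp1 had 81.4, Cplx1 58.9, Mapt 49.4, Elavl4 41.1, Ina 37.6, Ncam1 34.0, Elavl3 32.6, Syt1 31.3, Cplx2 28.1, Syt4 26.5 and Vamp2 24.6 CPM per kilobase.

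At the lower end of the expressed genes in dCas9-empty stood Nefh, the heavy neurofilament subunit, at 23.1, the membrane SNARE Snap25 at 22.9, the vesicle GTPase Rab3a at 21.4, Syn1, which tethers vesicles, at 18.7 and Elavl2 at 18.3 CPM per kilobase. Below them were the membrane SNARE Stx1a at 14.5, Map1a at 14.0, the vesicle protein Syp (synaptophysin) at 8.24 and Map2, a dendritic marker, at 5.87. In mCherry, Nefh had 38.5, Snap25 21.9, Syn1 19.9, Stx1a 19.8, Elavl2 18, Rab3a 16.6, Map1a 16.3, Syp 8.42 and Map2 5.48 CPM per kilobase. Map2 stood above 73.4% of genes in dCas9-empty and 67.1% in mCherry, the lowest of the 28. Of the 30 pairs of neighbours in the order of levels, the library ranges overlapped in 13 with dCas9-empty and in 9 with mCherry, so the exact rank within such pairs is not resolved. On the other strand, Gm14703 overlaps 16.8% of the exon bases of Syp, Gm26658 14.5% of those of Syt4 and Nt5c2 14.1% of those of Ina. The unstranded counts cannot separate such pairs.

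The light and medium neurofilament subunits and doublecortin were nearly absent. Nefl had 4, 3 and 2 counts in dCas9-SCN9A, 2, 0 and 1 in dCas9-empty, 0 and 1 in ZF-SCN9A, and 1 and 0 in mCherry. A count of 0 allows up to 3 counts, or 0.165 CPM in dCas9-empty replicate 2, 0.457 CPM in ZF-SCN9A replicate 1 and 0.390 CPM in mCherry replicate 2, for counting error only. Nefm had 15, 5 and 7 counts in dCas9-SCN9A, 18, 4 and 5 in dCas9-empty, 1 and 2 in ZF-SCN9A, and 1 and 3 in mCherry. In the annotation Nefl lies within the span of Nefm on the opposite strand, and their exons overlap over 32.8% of the exon bases of Nefl and 19.2% of those of Nefm, and reads there would be ambiguous without strand. The strand columns, which do not lose those reads, gave Nefl at most 7 counts and Nefm at most 13 in any library. Dcx, a microtubule-associated protein of migrating neurons, had 4, 1 and 3 counts in dCas9-SCN9A, 8, 2 and 2 in dCas9-empty, 2 and 3 in ZF-SCN9A, and 10 and 8 in mCherry. Ina and Nefh, the partners of Nefl and Nefm in filaments, were by contrast at 82.3 CPM or more in every library. All 3 low genes failed the filter on low counts in both repressor comparisons, which left 28 of the 31 to be tested there.

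The dCas9 comparison asked whether directing dCas9 at SCN9A moved these genes. None of the 28 tested genes passed the test, and each stayed within a narrow interval around its control. With edgeR's quasi-likelihood test, adjusted by Benjamini-Hochberg over all genes, 0 were called at an adjusted p under 0.05, where 0.041% of all 14628 genes were called. DESeq2 and limma-voom also called 0. The smallest adjusted p was 0.298, and log2 fold changes ran between -0.20 and 0.14. All 28 had a 95% interval within 0.5 on the log2 scale, a 1.41-fold change, against 71.9% of all genes tested. Most members were strongly expressed, and no share among genes of like level was computed. The bound was also chosen after seeing the data, so these shares are descriptions and not a result about the neuronal set. The median was -0.02, against 0.01 over all genes, with 12 positive and 16 negative values.

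At an unadjusted p under 0.05, 5 of the 28 genes were lower, where 5.92% of all genes were, and 0 were higher, where 4.17% of all genes were. Map1b, which binds microtubules in growing axons, stood at 2505, 2217 and 2318 CPM with dCas9-SCN9A, against 2848, 2591 and 2670 CPM with dCas9-empty. All 3 dCas9-SCN9A libraries lay below the lowest control, and the log2 fold change was -0.20 ± 0.07 (SE, adjusted p = 0.335 by edgeR). Map2 stood at 89.1, 85.4 and 82.1 CPM with dCas9-SCN9A, against 97.7, 96.3 and 95.8 CPM with dCas9-empty. These groups did not overlap either, at -0.17 ± 0.05 on the log2 scale (SE, adjusted p = 0.298 by edgeR).

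The other 3 at an unadjusted p under 0.05 were Ncam1, Syt1 and Map1a. Ncam1 had 288, 279 and 273 CPM with dCas9-SCN9A, against 321, 312 and 292 CPM with dCas9-empty, a log2 fold change of -0.14 ± 0.05 (SE). Syt1 had 332, 334 and 303 CPM with dCas9-SCN9A, against 352, 360 and 351 CPM with dCas9-empty (-0.13 ± 0.05). Map1a, of the same family as Map1b, had 156, 156 and 155 CPM with dCas9-SCN9A, against 174, 168 and 170 CPM with dCas9-empty (-0.13 ± 0.05). The libraries of the groups did not overlap for these 5 genes and for Dpysl3, 6 of the 28, where 15.7% of all genes had groups that did not overlap. Map1b was called without a filter on low counts (log2 fold change -0.21, adjusted p = 0.0325 by edgeR). It was also called with the replicate number as a block (-0.20, adjusted p = 0.0196 by edgeR). No other member was called in this comparison under any alternative tried.

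**Figure D2:**
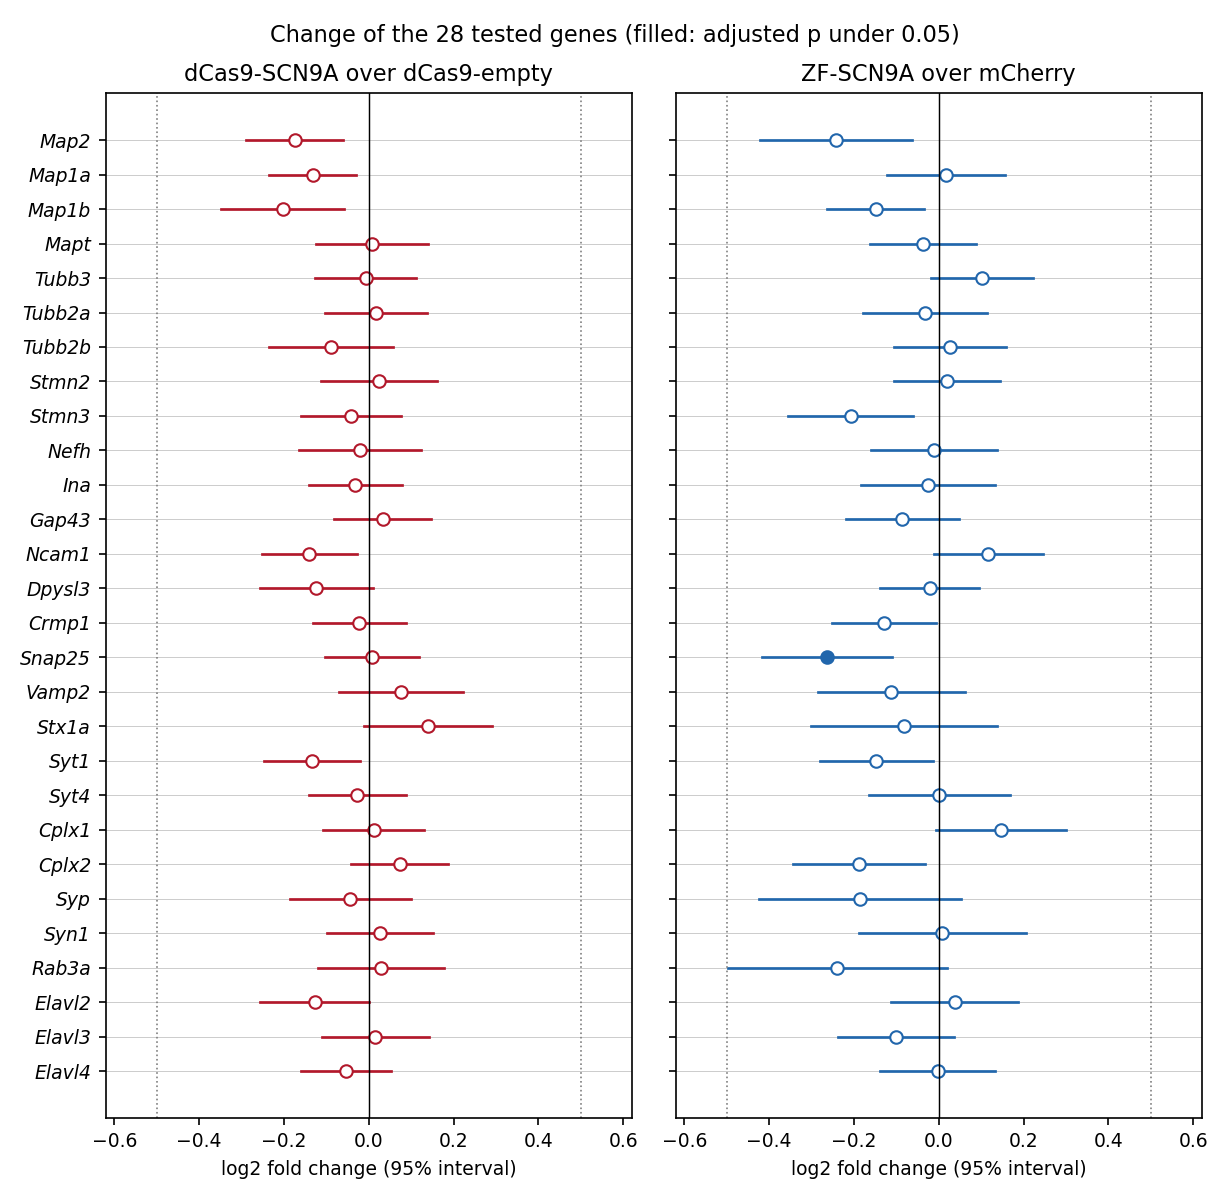
Log2 fold change of the 28 tested genes with its 95% interval, with dCas9-SCN9A over dCas9-empty on the left and ZF-SCN9A over mCherry on the right, ordered by role; dotted lines mark 0.5 in both directions. All intervals lie within the dotted lines, and the 1 filled point is Snap25 with ZF-SCN9A.

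The 5 nominally lower genes with dCas9 share long exons. With tested genes split by exon length into 5 equal groups, all lie in the longest, at 7079 bases or more, which holds 7 of the 28. The median log2 fold change in that group was -0.13 for the 7 members and -0.06 for all genes, while in the shortest group it was 0.00 for the 4 members and 0.09 for all genes. Across the 28 genes the Spearman correlation of log2 fold change with exon length was -0.60, and across all genes tested -0.35. Genes in 1 library are not independent replicates, so these are descriptions. After a correction of each library for its trend on exon length, the log2 fold change was -0.06 for Map2, -0.10 for Map1b, -0.05 for Map1a, -0.09 for Ncam1 and -0.09 for Syt1. All 5 corrected values were nearer 0 than the uncorrected ones, and none was called. The correction removes a trend that ran downward with exon length, so a move of long, lower genes toward 0 was built in. Over the 28 members the median went from -0.02 to -0.03. The cause of the lower values was not tested.

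**Figure D3:**
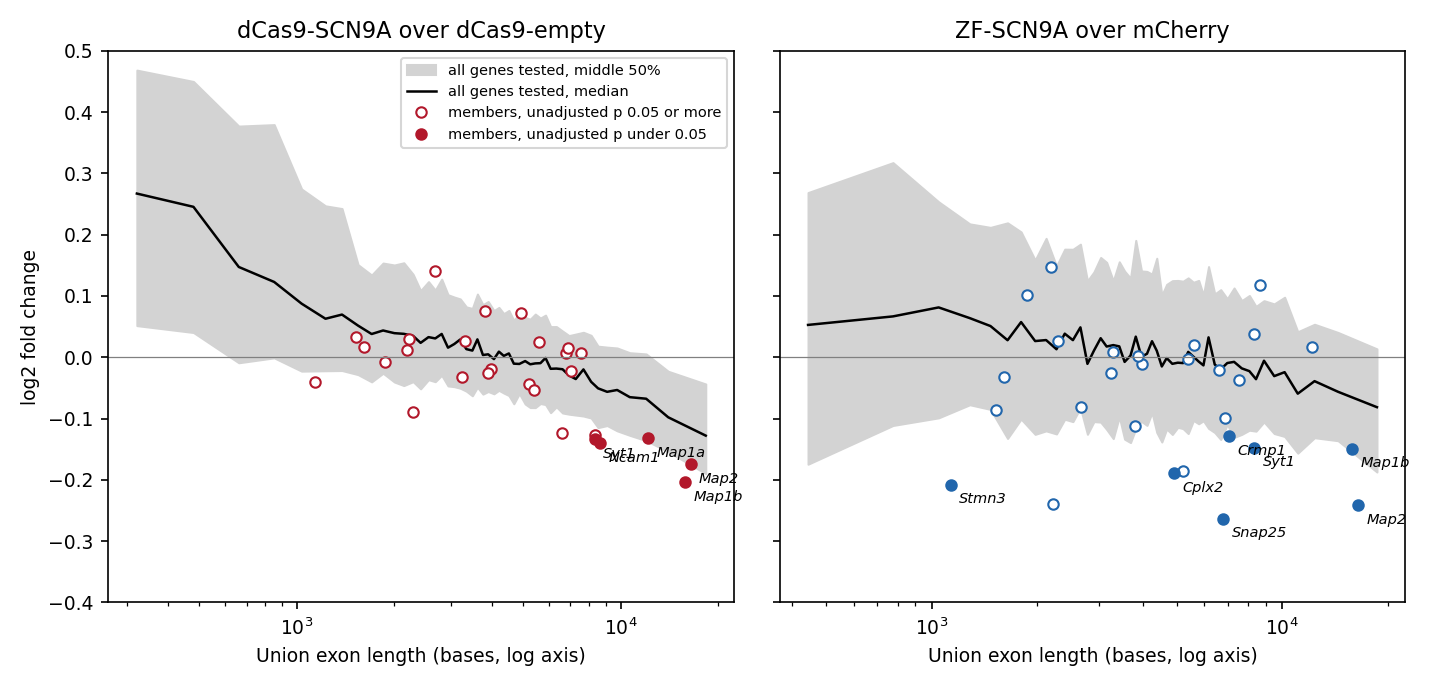
Log2 fold change against exon length (log axis) for the members (circles; filled at an unadjusted p under 0.05) and for all genes tested (line, median, and grey band, middle 50% in 50 windows of equal gene number). With dCas9 the named genes are long and lie below the median of all genes of like length, which itself falls with length. With the zinc finger the named genes are spread over short and long lengths.

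Members outside those 5 all had an unadjusted p of 0.05 or more with dCas9. That cutoff, and not a gap in size, sets the 5 apart. Stx1a (0.14), Elavl2 (-0.13) and Dpysl3 (-0.12) changed about as much as Syt1 and Map1a (-0.13 each). The tubulin Tubb3 stood at 734, 765 and 742 CPM with dCas9-SCN9A, against 775, 768 and 711 CPM with dCas9-empty (log2 fold change -0.01, 95% interval -0.13 to 0.11). Of the SNARE genes, Stx1a stood at 40.4, 42.7 and 44.9 CPM with dCas9-SCN9A, against 36.4, 39.3 and 40.5 CPM with dCas9-empty. The groups overlapped, and the log2 fold change of 0.14 (95% interval -0.01 to 0.29) did not pass even unadjusted. Vamp2 stood at 0.08 and Snap25 at 0.01 on the same scale. Among vesicle genes, Cplx2 had 0.07, Rab3a 0.03, Syn1 0.03, Cplx1 0.01, Syt4 -0.03 and Syp -0.04. Among the neurite genes, Gap43 had 0.03, Stmn2 0.03, Tubb2a 0.02, Mapt 0.01, Nefh -0.02, Crmp1 -0.02, Ina -0.03, Stmn3 -0.04, Tubb2b -0.09 and Dpysl3 -0.12. Of the RNA-binding genes, Elavl3 had 0.02, Elavl4 -0.05 and Elavl2 -0.13, and none of these had an unadjusted p under 0.05.

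The zinc-finger comparison asked the same of ZF-SCN9A. Snap25 (GRCm38, chromosome 2, 136713453 to 136782428, plus strand), a membrane SNARE needed for vesicle fusion, was the 1 member called of 28 (3.57%), and it was lower. Of all 12899 genes 4.72% were called and 2.78% were called lower, so the members' share was close to that of all genes. Snap25 stood at 127 and 120 CPM with ZF-SCN9A, against 145 and 153 CPM with mCherry. Both ZF-SCN9A libraries lay below both mCherry libraries. Snap25 was left at 83.3% of its control (95% interval 74.9% to 92.7%), or -0.26 ± 0.08 on the log2 scale (SE, adjusted p = 0.0222 by edgeR). The call was lost without mCherry replicate 2 (-0.22, adjusted p = 0.121), without ZF-SCN9A replicate 1 (-0.31, adjusted p = 0.160) and without ZF-SCN9A replicate 2 (-0.23, adjusted p = 0.351). It was also lost with DESeq2 (-0.26, adjusted p = 0.374) and with 1 strand column of counts (-0.18, adjusted p = 0.434 by edgeR). The direction was the same in each of these fits.

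At an unadjusted p under 0.05, 7 of the 28 genes were lower, where 8.4% of all genes were, and 0 were higher, where 7.78% of all genes were. The 7 span several roles. Stmn3, a destabiliser of microtubules, stood at 144 and 146 CPM with ZF-SCN9A, against 169 and 168 CPM with mCherry. These groups lay clear of each other, and the log2 fold change was -0.21 ± 0.08 (SE, adjusted p = 0.0884 by edgeR), the nearest to the threshold among those not called. After the correction for exon length Stmn3, the shortest member at 1136 bases, was called (-0.27, adjusted p = 0.0125 by edgeR). Map2 had 73.7 and 78.4 CPM with ZF-SCN9A, against 89.9 and 90.3 CPM with mCherry, -0.24 ± 0.09 on the log2 scale (SE, adjusted p = 0.108 by edgeR). After the same correction Map2, the longest member, had -0.17 (adjusted p = 0.349 by edgeR). Here too the trend removed ran downward with exon length. A move of short members further down and of long, lower members toward 0 was therefore built in, and the gained call of Stmn3 is no separate support.

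Map1b had 2854 and 3078 CPM with ZF-SCN9A, against 3358 and 3252 CPM with mCherry (-0.15 ± 0.06 SE, adjusted p = 0.128 by edgeR), and limma-voom called it (-0.15, adjusted p = 0.0297). Cplx2, which clamps and promotes fusion, had 122 and 120 CPM with ZF-SCN9A, against 144 and 133 CPM with mCherry (-0.19 ± 0.08 SE). Syt1 had 242 and 226 CPM with ZF-SCN9A, against 270 and 252 CPM with mCherry (-0.15 ± 0.07 SE). Crmp1 had 507 and 537 CPM with ZF-SCN9A, against 574 and 573 CPM with mCherry (-0.13 ± 0.06 SE). In all 4 genes both ZF-SCN9A libraries lay below both mCherry libraries, and none was called by edgeR. After the correction for exon length the values were -0.08 for Map1b (adjusted p = 0.534 by edgeR), -0.19 for Cplx2, -0.13 for Syt1 and -0.12 for Crmp1. None of the 4 was called in that fit.

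**Figure D4:**
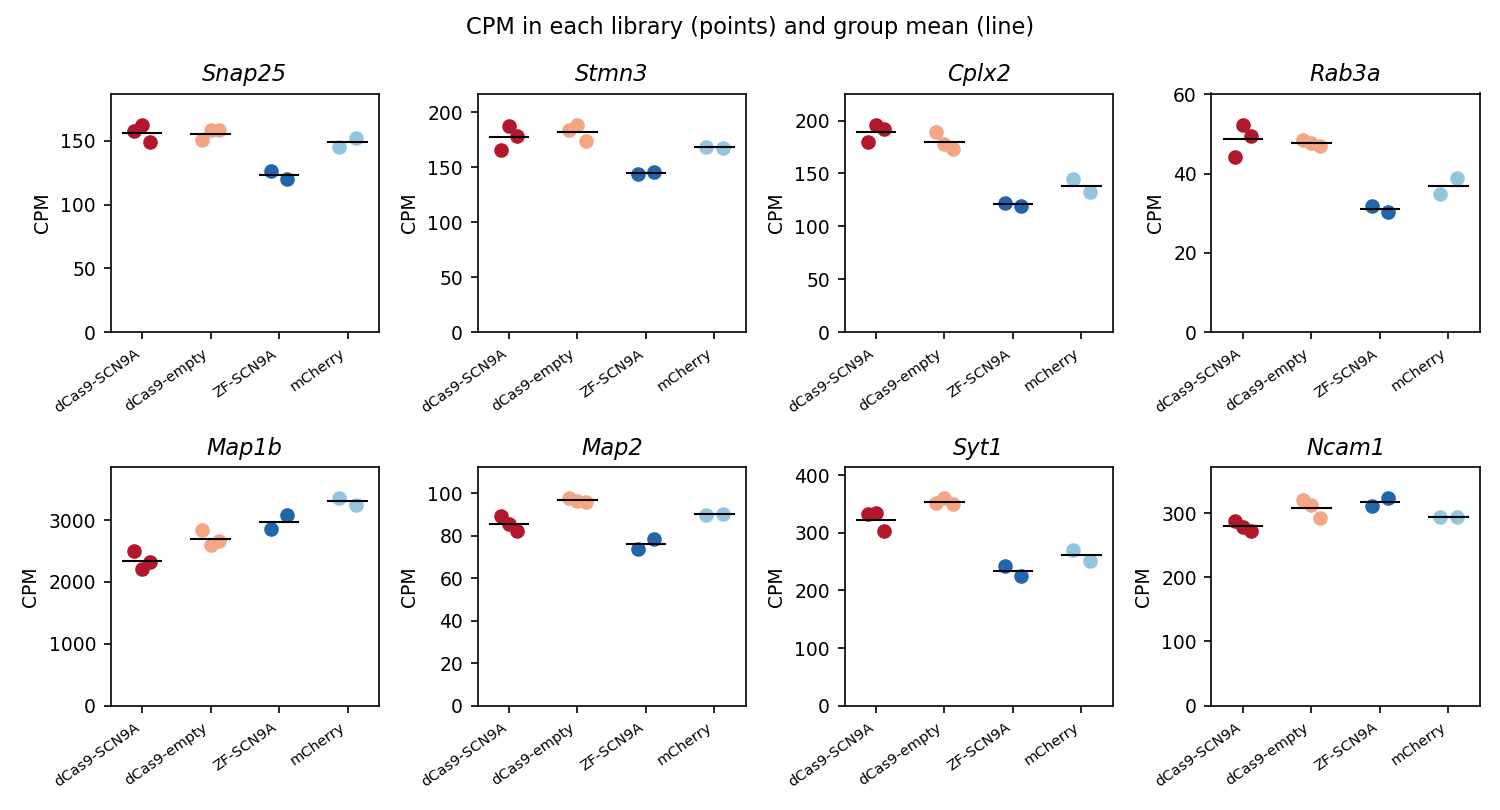
CPM in each library (points) with the group mean (line) for 8 genes named in the text, on axes that start at 0, in the order dCas9-SCN9A, dCas9-empty, ZF-SCN9A, mCherry. Snap25, Stmn3 and Cplx2 are lower with ZF-SCN9A than with mCherry and overlap between the dCas9 groups, while Map2, Map1b and Syt1 are lower in both comparisons. Of the 8, only Snap25 with ZF-SCN9A was called by edgeR, leaving the alternative fits aside.

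The members' median with the zinc finger was -0.03, against 0.00 over all genes, with 9 positive and 19 negative values. All 28 intervals again lay within 0.5 on the log2 scale, against 61.3% of all genes, again without a share among genes of like level. The libraries did not overlap for 15 of the 28, where 45.8% of all genes had groups that did not overlap with 2 libraries each, so the members' share was close to that of all genes. The Spearman correlation with exon length was -0.10 across the 28 and -0.12 across all genes.

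The remaining members had an unadjusted p of 0.05 or more with the zinc finger. Rab3a stood at 31.8 and 30.3 CPM with ZF-SCN9A, against 34.7 and 39.0 CPM with mCherry. Its interval was the widest of the set (log2 fold change -0.24, 95% interval -0.50 to 0.02). Synaptophysin (Syp) stood at 38.2 and 38.6 CPM with ZF-SCN9A, against 44.2 and 43.5 CPM with mCherry, a log2 fold change of -0.19 (95% interval -0.42 to 0.05). Among other release genes the log2 fold change was 0.15 for Cplx1, 0.01 for Syn1, 0.00 for Syt4, -0.08 for Stx1a and -0.11 for Vamp2. Among neurite genes it was 0.12 for Ncam1, 0.10 for Tubb3, 0.03 for Tubb2b, 0.02 for Stmn2, 0.02 for Map1a, -0.01 for Nefh, -0.02 for Dpysl3, -0.03 for Ina, -0.03 for Tubb2a, -0.04 for Mapt and -0.09 for Gap43. The ELAV-like genes had 0.04 for Elavl2, 0.00 for Elavl4 and -0.10 for Elavl3.

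The repressors were then compared with each other by a contrast of the 2 changes in 1 fit to all 10 libraries, where 30 members could be tested. None passed, where 0.907% of all 15766 genes did. limma-voom also called 0, and 3 members had an unadjusted p under 0.05. Snap25 had the smallest p, with a change 0.28 ± 0.09 (SE) higher with dCas9 than with the zinc finger on the log2 scale (adjusted p = 0.178 by edgeR). Cplx2 had 0.27 ± 0.09 (SE, adjusted p = 0.220) and Ncam1 -0.25 ± 0.08 (SE, adjusted p = 0.193). A different response of these genes to the 2 repressors is therefore not shown, while the unadjusted 95% intervals were 0.09 to 0.46 for Snap25, 0.08 to 0.46 for Cplx2 and -0.42 to -0.08 for Ncam1.

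The larger contrast among the members was between the arms. Of 30 genes, 13 differed between dCas9-empty and mCherry by edgeR's quasi-likelihood test, where 35.9% of all genes did. The share is near that of all genes, so it is not a result about the neuronal set. Plasmid, depth and experiment cannot be told apart here. In 11 of the 30 all 6 dCas9 arm libraries lay on 1 side of all 4 zinc-finger arm libraries, where 32.2% of all genes did so. The sympathoadrenal marker sum was also higher in the dCas9 arm, at 2809 CPM or more against 1767 or less, and its part in these differences was not tested. A sum follows its most abundant markers, and the single markers did not all run in that direction.

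Nefh had the largest difference among the expressed members. It stood at 92.7, 82.3 and 97.5 CPM with dCas9-SCN9A, 98.3, 92.1 and 86.0 with dCas9-empty, 152 and 152 with ZF-SCN9A, and 154 and 154 with mCherry. Each arm was tight within itself, and the log2 fold change of dCas9-empty over mCherry was -0.74 ± 0.07 (SE, adjusted p = 2.48e-09 by edgeR). Stx1a was lower in dCas9-empty too, at 36.4, 39.3 and 40.5 CPM against 51.3 and 54.4 CPM in mCherry (-0.45 ± 0.09 SE, adjusted p = 1.91e-04 by edgeR). Map1b (-0.29), Map1a (-0.22) and Elavl3 (-0.19) were also lower. With the correction for exon length the calls of Map1a (adjusted p = 0.0820 by edgeR) and Elavl3 (adjusted p = 0.0972 by edgeR) ended. Map1a's also ended without mCherry replicate 1 (adjusted p = 0.0855), and Elavl3's without mCherry replicate 2 (adjusted p = 0.283) or dCas9-empty replicate 1 (adjusted p = 0.0801). Without a filter on low counts Elavl3 was not called either (adjusted p = 0.114 by edgeR).

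Dcx was called lower in dCas9-empty (-2.41 ± 0.67 SE, adjusted p = 0.00579 by edgeR) on 12 counts in all against 18 in the much shallower mCherry libraries. Having failed the low-count filter in both repressor comparisons, Dcx entered this fit through mCherry, the group where it is high. It stood there at 1.48 and 1.04 CPM, against 0.461 CPM or less in each dCas9 arm library. Its call, counted among the 13, is therefore no support for a difference. The call ended without mCherry replicate 1 (-2.14, adjusted p = 0.102 by edgeR), and with so few counts its size is not resolved.

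In the other direction 7 genes were higher in dCas9-empty than in mCherry. Syt1 had 352, 360 and 351 CPM in dCas9-empty, against 270 and 252 CPM in mCherry (0.44 ± 0.06 SE, adjusted p = 1.92e-06 by edgeR). Cplx2 had 189, 178 and 174 CPM in dCas9-empty, against 144 and 133 CPM in mCherry (0.38 ± 0.07 SE). Mapt and Tubb2b had 0.39 each, Rab3a 0.37, and Stmn2 and Dpysl3 0.36 each on the log2 scale. Rab3a's call ended without mCherry replicate 1 (0.30, adjusted p = 0.0696 by edgeR). The differences run in both directions within single roles, for example with Syt1 and Cplx2 higher and Stx1a lower among release genes. In the fit with exon length corrected, Map2 (0.20, adjusted p = 0.0172) and Gap43 (-0.26, adjusted p = 0.00115) were called as well. With plain library sizes, Gap43 (-0.21, adjusted p = 0.00921) and Crmp1 (-0.20, adjusted p = 0.00425) were called.

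**Figure D5:**
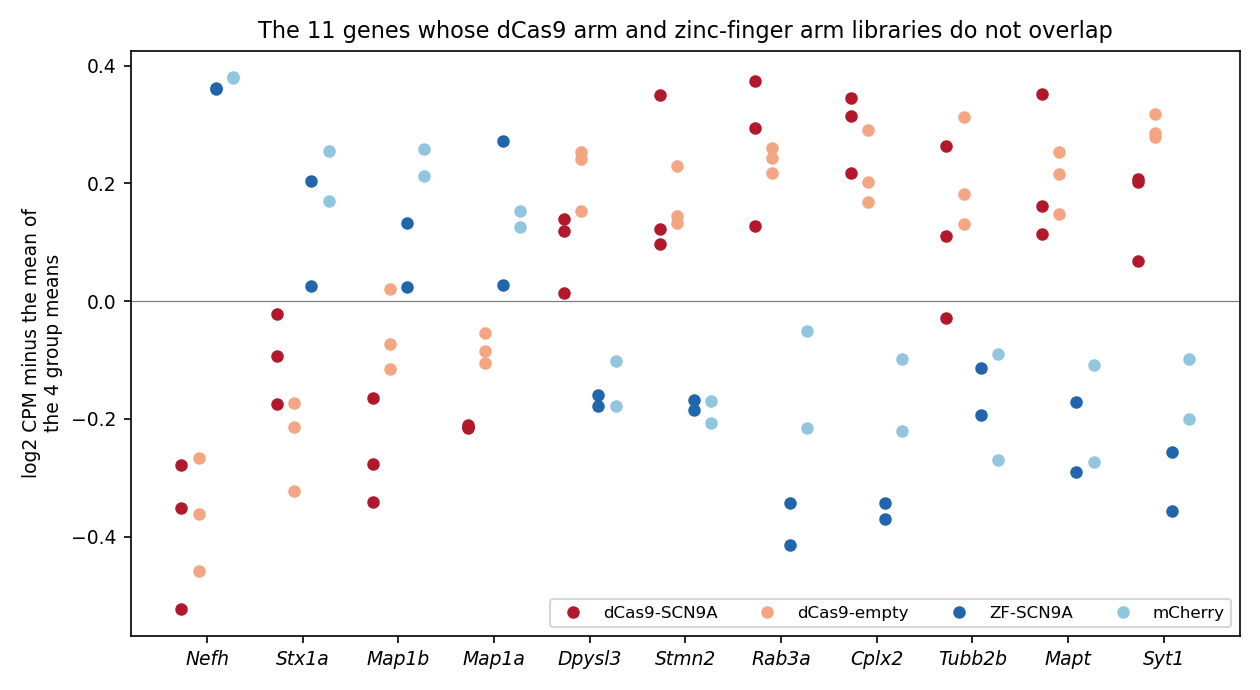
Log2 CPM of each library minus the mean of the 4 group means, for the 11 genes in which no library of the dCas9 arm overlaps one of the zinc-finger arm. Nefh, Stx1a, Map1b and Map1a are lower in the dCas9 arm and the other 7 higher, and within an arm the repressor and control libraries lie close together compared with the gap for Nefh.

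Other genes of the same pathways were taken from a list of 212 symbols, of which 211 were found in the files. The list was chosen with earlier results of these data known, so its shares beside those of all genes are descriptions only. With dCas9, 0 of 179 tested passed edgeR's test, and DESeq2 and limma-voom called 0. At an unadjusted p under 0.05, 32 of the 179 were lower, where 5.92% of all genes were, and 3 were higher, where 4.17% were. These genes are also long, with a median exon length of 6119 bases against 3980.5 for all genes tested. Their log2 fold change had a Spearman correlation of -0.48 with exon length, and its part in the lower values was not tested. Without a filter on low counts 6 were called, all lower, among 172 calls over all genes. With the zinc finger, 20 of 177 were called (11.3%), where 4.72% of all genes were. Of these, 15 were lower, where 2.78% of all genes were called lower, and 5 were higher. They comprised 8 of 57 cytoskeletal genes, 4 of 66 vesicle release genes, 2 of 33 RNA-binding genes and 6 of 21 gene regulators. DESeq2 called 6 genes of the list and gave no adjusted p to 12, and limma-voom called 20.

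Among the cytoskeletal genes, Ttbk1, a kinase that phosphorylates tau and tubulin, fell to 36.5 and 45.3 CPM with ZF-SCN9A, against 121 and 123 CPM with mCherry. Its groups lay far apart (log2 fold change -1.59 ± 0.10 SE, adjusted p = 9.08e-56 by edgeR). With dCas9-SCN9A it had 102, 97.4 and 97.7 CPM, against 101, 109 and 105 CPM with dCas9-empty. Its substrate tau, Mapt, had 346 and 376 CPM with ZF-SCN9A, against 350 and 393 CPM with mCherry, and these groups overlapped.

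Kif5c, a neuronal kinesin heavy chain, fell by 0.31 on the log2 scale with the zinc finger and the alpha tubulin gene Tuba1a fell by 0.22. Prph, peripherin, an intermediate filament of peripheral neurons, rose to 1727 and 1767 CPM with ZF-SCN9A, against 1356 and 1598 CPM with mCherry (0.25 ± 0.06 SE, adjusted p = 0.00162 by edgeR). The beta tubulin Tubb6 rose by 0.28. The calls of Prph, Tubb6 and Tuba1a each ended without mCherry replicate 1 and without either ZF-SCN9A replicate, and with DESeq2. That of Kif5c ended without ZF-SCN9A replicate 1. Gm49450 on the same strand overlaps 26.2% of the exon bases of Tuba1a.

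Of the vesicle release genes, Syt14, an atypical synaptotagmin, fell to 50.1 and 45.1 CPM with ZF-SCN9A, against 80.4 and 78.7 CPM with mCherry (-0.73 ± 0.10 SE, adjusted p = 4.87e-10 by edgeR). Rimbp2, an active zone scaffold, rose to 109 and 103 CPM with ZF-SCN9A, against 73.9 and 82.5 CPM with mCherry (0.45 ± 0.09 SE, adjusted p = 3.17e-05 by edgeR). Of the RNA-binding genes, Cpeb2, a regulator of translation, fell by 0.37, and Celf5, a splicing factor, fell by 0.61. The Cpeb2 call ended without ZF-SCN9A replicate 2 (adjusted p = 0.217) and that of Celf5 without mCherry replicate 2 (-0.30, adjusted p = 0.365) or ZF-SCN9A replicate 1 (adjusted p = 0.215).

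Of the gene regulators, Gata2, a transcription factor of the sympathoadrenal lineage, fell to 178 and 185 CPM with ZF-SCN9A, against 282 and 261 CPM with mCherry (-0.58 ± 0.07 SE, adjusted p = 5.11e-14 by edgeR). Sox4 fell to 355 and 338 CPM with ZF-SCN9A, against 493 and 428 CPM with mCherry (-0.40 ± 0.06 SE, adjusted p = 6.98e-08 by edgeR). An annotated antisense gene, Gm26735, overlaps 54.6% of the exon bases of Sox4. Gm26735 was not among the gene identifiers measured, so in unstranded counts its reads there would be counted to Sox4. Isl1, a LIM-homeodomain factor, fell by 0.41, and its call ended without mCherry replicate 1 (adjusted p = 0.200) or ZF-SCN9A replicate 2 (adjusted p = 0.351). Ttbk1, Gata2, Syt14, Sox4 and Rimbp2 were called under every alternative tried. Besides the genes above, the calls of Cpeb2, Celf5 and Isl1 ended with DESeq2, those of Cpeb2, Isl1 and Tubb6 with 1 strand column, and those of Celf5, Prph, Tubb6 and Tuba1a with all 10 libraries in 1 fit.

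Rest, which encodes the repressor of neuronal genes outside neurons, was chosen for mention after its values were seen. It had 37.3 and 40.3 CPM with ZF-SCN9A, against 48.5 and 54.5 CPM with mCherry (-0.41 ± 0.12 SE, adjusted p = 0.0163 by edgeR). The call ended without mCherry replicate 2 (-0.32, adjusted p = 0.181), without ZF-SCN9A replicate 1 (-0.35, adjusted p = 0.342), without ZF-SCN9A replicate 2 (-0.46, adjusted p = 0.0767), with all 10 libraries in 1 fit (-0.42, adjusted p = 0.0655), with DESeq2 (adjusted p = 0.389) and with 1 strand column (-0.25, adjusted p = 0.513). With dCas9-SCN9A it had 31.6, 32.7 and 27.2 CPM, against 30.3, 31 and 36.0 CPM with dCas9-empty, and these groups overlapped.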

How the data were processed

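Per the labels' protocols, RNeasy columns, a NEBNext Ultra II library kit and an Illumina NovaSeq were used. The build GRCm38 with STAR 2.7.3a, bcl2fastq 2.20 and DESeq2 was used per the submitters' processing notes; which annotation and settings served for counting is not given in the sources used here. Raw counts per gene were deposited, in 1 unstranded and 2 strand columns of about equal size. The unstranded column was used. The 4 entries that name no gene held 25.0% to 28.2% of listed reads, and they and 4 plasmid entries stayed out of library sizes and tests. Of 55401 identifiers, 55141 had a symbol in GENCODE M21.

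Counts were tested with edgeR 4.0.16 (limma 3.58.1, R 4.3.3), by the quasi-likelihood test with TMM scaling, edgeR's low-count filter, robust estimation and p-values that are two-sided and adjusted by Benjamini-Hochberg over all genes tested. Each repressor was fitted with its own control. The contrast of both changes and that of the controls used all 10 libraries. Biological variation between replicates (edgeR's coefficient) came to 6.07% for dCas9 and 5.12% for the zinc finger. In the zinc-finger fit the prior degrees of freedom were infinite for 88.0% of genes, so their p-values rest on spread shared across genes. Intervals of 95% come from the fit. DESeq2 1.42.0, run on the genes edgeR kept, and limma-voom served as alternatives, with other scalings, filters, count columns, a correction for exon length, the replicate number as a block and each library left out.

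Replicate pairs differed by more than sampling noise (chi-square per degree of freedom 1.98 to 8.31). The labels do not say that replicates were separate cultures, so the spread behind the p-values is that between these samples and may be technical.

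The members, the wider list and the marker lists were chosen with earlier results of these data known. Named are all members, Scn9a, and genes of the wider list called with a repressor, at most 12 by smallest p. Among the markers, Hand2, Dbh, Chga and the fibroblast gene Col1a1 were called with ZF-SCN9A and none with dCas9-SCN9A. The level of 1 sympathoadrenal marker is not reported here.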

Additional observations from a re-analysis of the deposited data

Results flagged for a closer look

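The response of 3 genes of the wider list differed between the repressors by the contrast over all 10 libraries (edgeR's quasi-likelihood test, Benjamini-Hochberg adjusted). For Ttbk1, the tau tubulin kinase gene, the log2 fold change was 1.51 higher with dCas9 than with the zinc finger (adjusted p = 9.78e-11), from values of -0.09 with dCas9-SCN9A and -1.59 with ZF-SCN9A. For Gata2 the difference was 0.66 (adjusted p = 1.90e-05), from 0.07 with dCas9-SCN9A and -0.58 with ZF-SCN9A. For the synaptotagmin Syt14 it was 0.56 (adjusted p = 0.00601), from -0.18 with dCas9-SCN9A and -0.73 with ZF-SCN9A. The plasmid, the control and the experiment differ between the arms and cannot be told apart from the repressor. None of the 31 members met this test.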

How the results depend on the processing

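The 28 members stayed within 0.5 on the log2 scale under every alternative fitted with edgeR or limma for dCas9, and 26 to 28 did with the zinc finger (not computed with DESeq2); 11 to 15 members had arms that did not overlap (both counts chosen after seeing the data). With dCas9, 1 member (Map1b) was called when no low-count filter was applied, and 1 under the replicate block (adjusted p = 0.0196). With the zinc finger, 0 members were called with 1 strand column and 0 with DESeq2, and 2 with limma-voom, exon length correction, the replicate block (Map1b, adjusted p = 0.0351, beside Snap25) and the block with length correction (Stmn3, adjusted p = 0.00170, beside Snap25); leaving out a library gave 0 to 1. Wider list calls with dCas9 were 6 without a filter, 8 with the block, 1 with block and length correction, 1 with all 10 libraries and 0 to 1 without a library; with the zinc finger they were 12 with 1 strand column, 6 with DESeq2, 9 with all 10 libraries and 8 to 20 without a library. Over all genes, dCas9 calls were 6, against 172 without a filter, 13 with 1 strand column, 28 with DESeq2, 2 with length correction, 262 with the block, 97 with block and length correction, 29 with all libraries and 1 to 34 without a library. Zinc-finger calls were 609, against 283 with 1 strand column, 128 with DESeq2, 348 with all libraries and 201 to 787 without a library. The members' median with the zinc finger was -0.085 to -0.040 without a library. The replicate block called 1 member in the difference between repressors (Ncam1, adjusted p = 0.0482) and 2 with length correction (Ncam1 and Snap25). Samples share a number, with no pairing stated. Correlations of deviations from the group mean were, for same-number libraries, 0.21, 0.37 and 0.07 with dCas9 and 0.10 with the zinc finger. With 2 libraries per group the zinc-finger value is a single number, and unlike numbers are fixed at its mirror, -0.10. With dCas9, correlations of unlike numbers ran from -0.31 to 0.15, the highest for dCas9-SCN9A replicate 3 with dCas9-empty replicate 1. Deviations within a group offset each other, so these are not independent of the same-number values. Col3a1 stood at 5.01 CPM in dCas9-SCN9A replicate 1 and 3.86 CPM in dCas9-empty replicate 1. It was at or under 0.0549 CPM in the other dCas9 libraries. Whether the number marks a pair was not tested. The block changed no other call of a member in these 3 contrasts and was not run for that of the controls. The cause of each move was not tested. Depth limits Nefl, Nefm and Dcx.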
